A study of Drosophila melanogaster with 14 samples.

Results

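Larvae carrying the Septin5 allele Sep5[2] alone were compared with larvae of the control strain w1118 by sequencing of polyadenylated RNA from whole animals in the last (3rd) larval instar. The Sep5 single mutant has 3 libraries and w1118 has 4, which makes 7 of the 14 libraries of the series. The others are 3 of the Sep2[2] single mutant and 4 of the Sep2[2] Sep5[2] double mutant. All animals were reared at 25 °C without treatment. The genes described are those with a level above 0 log2 CPM on the authors' scale in at least 3 of the 14 libraries, 12586 of 17869 genes in the table. The labels call the double mutant homozygous and give no zygosity for the single mutants. They do not say how many larvae, or which sexes, went into a library, or whether the libraries came from separate cultures, so p-values cover only how these libraries vary, which may be technical variation. One allele was compared with one control strain, so the allele and any other difference between the strains cannot be told apart.

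Septins bind GTP and polymerize into filaments that lie under membranes and on actin and microtubules. In Drosophila, Septin5 and its close relative Septin2 act in a complex with Septin1, Septin4 and pnut, which is known from cytokinesis. The larval stage sampled ends with a pulse of the steroid hormone ecdysone, which switches on nuclear receptors and transcription factors in a fixed sequence and starts pupariation. Genes for feeding, gut digestion, cuticle and muscle also change quickly around that time, which makes their levels sensitive to the exact age of the animals.

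The Sep5 mutant libraries held 16313743, 47203028 and 13230030 reads (replicates 1, 2 and 3) and the w1118 libraries 18138648 to 34040709. Levels are given as CPM, the usual library-scaled read rate, after the authors' scaling between libraries and in the order of the replicate numbers. They are not divided by gene length, so levels of different genes cannot be ranked against each other. Protocol text attached to the labels mentions adult flies, but 20 adult markers summed to only 20.2 to 21.1 CPM in Sep5 mutants and 15.2 to 21.0 CPM in w1118. The 7 salivary glue genes, which belong to late larvae, summed to 3755 to 14157 CPM in Sep5 mutants and 4545 to 18789 CPM in w1118.

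Sep5 replicate 2 stood apart from the other Sep5 libraries. In it 48 genes lay at least 4-fold above both other Sep5 libraries and 22 at least 4-fold below both. For 39 of the 48 and 19 of the 22, replicates 1 and 3 were both outside the range of the controls. Replicate 2 itself was inside that range for only 17 of the 48 and 10 of the 22. Of all tested genes, 27.9% lay below and 32.9% above every control in replicate 1. These shares were 16.4% and 18.8% in replicate 2, and 30.3% and 28.8% in replicate 3. Genes at least 4-fold above or below both other Sep5 libraries numbered 24 and 10 for replicate 1, and 2 and 63 for replicate 3. Over all tested genes the log2 levels of replicate 2 correlated with the control libraries at r = 0.938 to 0.963, compared with 0.911 to 0.936 for replicate 1 and 0.889 to 0.938 for replicate 3, as a description across genes of 1 library at a time. Results are therefore also given without replicate 2, which was singled out from its own levels.

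The targeted gene was nearly absent from the Sep5 mutant libraries. Septin5, on chromosome arm 2R (2R:7960133-7961921), had 0.0681, 0.0194 and 0 CPM in Sep5 mutants, against 5.24, 3.58, 4.55 and 7.84 CPM in w1118. That is 2 reads in the 3 mutant libraries together, against 656 reads in the 4 control libraries, or 0.483% of the control rate (exact 95% interval 0.0584% to 1.75%, counting error only). The groups did not overlap (log2 difference −5.62 ± 0.56 SE, adjusted p = 4.94e-05). Every adjusted p here is from limma on the log2 values, two-sided, with Benjamini-Hochberg adjustment over all tested genes, and a gene is called where it is under 0.05.

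No other septin was called. Septin4 had 11.8, 11.3 and 10.2 CPM in Sep5 mutants, against 16.7, 15.4, 12.8 and 21.8 CPM in w1118, without overlap, at an adjusted p of 0.12. Septin1 averaged 74.9 ± 20.8 CPM in Sep5 mutants and 94.1 ± 24.2 CPM in w1118 (SD, n = 3 and 4, adjusted p = 0.452). For pnut the means were 88.2 ± 18.0 CPM in Sep5 mutants and 118 ± 28.8 CPM in w1118 (adjusted p = 0.29). Septin2, the gene most like Septin5, had 78.5, 58.5 and 47.8 CPM in Sep5 mutants, against 59.1, 48.2, 46.6 and 67.2 CPM in w1118, with overlapping groups (adjusted p = 0.935).

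The white gene w, which encodes an eye pigment transporter and is mutated in the control strain, was higher in Sep5 mutants. Its level was 7.90, 8.35 and 5.23 CPM in Sep5 mutants, against 1.42, 2.00, 1.82 and 2.38 CPM in w1118 (log2 difference 1.86 ± 0.46 SE, adjusted p = 0.0308). Another pigment transporter, st, had 3.06, 1.77 and 5.23 CPM in Sep5 mutants, against 0.817, 1.09, 1.62 and 0.257 CPM in w1118 (1.83 ± 0.46, adjusted p = 0.0339). These were the 2 called genes among 14 tested eye pigment genes (14.3%, against 5.13% of all tested genes). Neither gene was called without w1118 replicate 1 or 4 or without Sep5 replicate 1 or 3 (adjusted p = 0.0515 to 0.214), and w also missed the threshold without w1118 replicate 2 (0.0584) and without Sep5 replicate 2 (0.0514).

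In all, 646 of 12586 genes were called between Sep5 mutants and w1118 (5.13%), 490 of them higher in Sep5 mutants (3.89%) and 156 lower (1.24%). These shares are the background for the counts of called members of each gene list, and in the smaller lists a single call already exceeds them. The called genes higher in Sep5 mutants made up 75.9%, while the median log2 difference of all tested genes was −0.01. At least 2-fold differences were found in 413 genes called higher and 134 called lower, and at least 4-fold differences in 169 and 57. The libraries did not overlap for 620 of the 646, as for 15.2% of all tested genes. Genes known only by a CG or CR number made up 46.3% of the called genes and 38.9% of the tested ones.

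The number of calls rested heavily on single libraries. Without Sep5 replicate 2 it was 1373 (10.9%), 871 higher (6.92%) and 502 lower (3.99%), and included 621 of the 646. Without Sep5 replicate 1 or 3 it was 294 or 238, and without w1118 replicate 1 or 4 it was 371 or 392. Whichever of the 7 libraries was left out, 138 genes stayed called higher and 69 called lower.

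**Figure D1:**
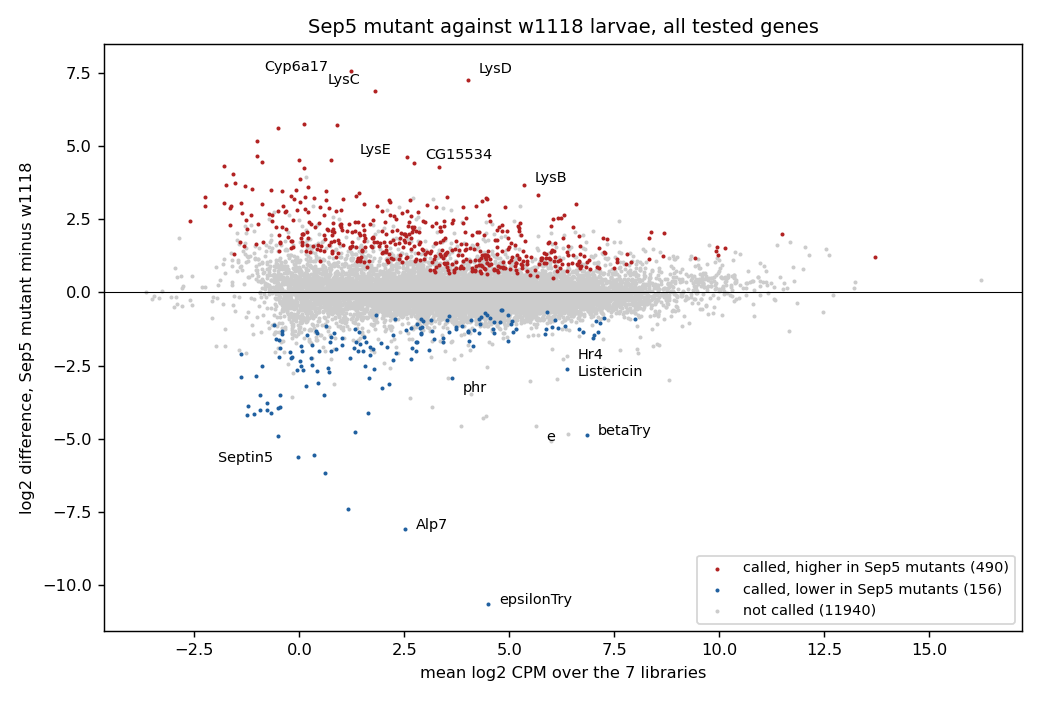
Each point is 1 of the tested genes, with its mean log2 CPM over the 7 libraries on the x axis and its log2 difference (Sep5 mutant minus w1118) on the y axis. Red points are the 490 genes called higher in Sep5 mutants, blue the 156 called lower and grey the rest; e and Hr4 lie far below 0 but are grey, and in both Sep5 replicate 2 lay apart from the other mutant libraries.

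Among genes that averaged 2 log2 CPM or more and did not overlap between the groups, digestive enzymes had the 3 largest falls. epsilonTry, one of a row of trypsin genes on 2R (2R:11345237-11346066), had 0.545, 0.117 and 0.224 CPM in Sep5 mutants, against 838, 389, 669 and 375 CPM in w1118. Its neighbour betaTry (2R:11346325-11347395) had 23.02, 11.5 and 17.2 CPM in Sep5 mutants, against 463, 384, 771 and 430.0 CPM in w1118. Alp7, an alkaline phosphatase gene elsewhere on the arm (2R:22203694-22205593), had 0.272, 0.0777 and 0.149 CPM in Sep5 mutants, against 56.4, 55.7, 115 and 44.7 CPM in w1118. All 3 mutant libraries were low for all 3 genes, replicate 2 included. Read totals put epsilonTry at 0.0370% of the control rate (0.0215% to 0.0592%), Alp7 at 0.200% (0.0958% to 0.368%) and betaTry at 3.04% (2.86% to 3.22%). The log2 differences were −10.65 ± 0.36, −8.09 ± 0.67 and −4.89 ± 0.35 (adjusted p = 4.24e-10, 7.62e-06 and 2.75e-06); the first and second depend on the count the authors added to low values.

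Not every trypsin of the row was lower. alphaTry, directly before epsilonTry (2R:11344260-11345119), had 258, 158 and 76.8 CPM in Sep5 mutants, against 244, 204, 148 and 251 CPM in w1118 (log2 difference −0.50, adjusted p = 0.422). Among 10 tested trypsins of this row, 3 were called lower and 2 higher in Sep5 mutants. lambdaTry had no read in any Sep5 mutant library, against 0.817, 3.82, 3.89 and 0.257 CPM in w1118 (adjusted p = 0.0153, but 0.0584 without Sep5 replicate 1 and 0.0688 without replicate 3). Rises were called for kappaTry, at 28.3, 30.3 and 63.0 CPM in Sep5 mutants, against 7.09, 11.4, 18.2 and 1.87 CPM in w1118, and for etaTry, which averaged 25.3 ± 6.85 CPM in Sep5 mutants and 9.68 ± 3.92 CPM in w1118 (SD, n = 3 and 4). The call of kappaTry (adjusted p = 0.0272) ended without w1118 replicate 1 (0.0727), Sep5 replicate 1 (0.0612) or Sep5 replicate 3 (0.171), and that of etaTry without Sep5 replicate 3. Trypsin copies resemble each other, and reads shared between copies could have been split in ways the sources used here do not give.

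Several of the other large falls involved genes of known function. phr, the photolyase that repairs ultraviolet damage in DNA, lies 135 kb from Septin5 and had 4.22, 3.81 and 3.43 CPM in Sep5 mutants, against 29.0, 32.1, 25.9 and 31.2 CPM in w1118 (−2.93 ± 0.19, adjusted p = 1.24e-06). The antibacterial gene Listericin had 38.2, 16.7 and 39.2 CPM in Sep5 mutants, against 241, 181, 113 and 206 CPM in w1118 (−2.61 ± 0.41, adjusted p = 0.00162). Both genes were low in all 3 mutant libraries. Only 10.3 kb from Septin5, azot, a calcium-binding protein known from cell competition, had 1.84, 4.72 and 2.91 CPM in Sep5 mutants, against 10.3, 16.7, 11.0 and 8.25 CPM in w1118 (−1.90 ± 0.39, adjusted p = 0.0111). The remaining large falls were CG32006 (−3.12), CG33667 (−2.30), lncRNA:CR44042 (−2.26), CG31776 (−2.09), CG13999 (−2.01) and klhl10 (−1.97) on the log2 scale. klhl10, which acts in sperm individualization, had 2.38, 7.87 and 2.99 CPM in Sep5 mutants, against 14.8, 21.2, 10.5 and 16.3 CPM in w1118. The 24 male germline markers summed to 904.7, 1848 and 1136 CPM in Sep5 mutants, against 1508, 2295, 1739 and 1247 CPM in w1118, with none of 23 tested ones called, and their part in the klhl10 value was not tested. Neither klhl10 nor azot was called without Sep5 replicate 1 (adjusted p = 0.0920 and 0.0679) or 3 (0.0991 and 0.0550).

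Lysozymes, enzymes that cut bacterial cell walls and that flies use in the gut, gave the largest rises as a family. Of 7 tested members 6 were called higher in Sep5 mutants, with a median log2 difference of 3.65 over the 7. LysD had 220.4, 267 and 392 CPM in Sep5 mutants, against 1.39, 0.347, 1.21 and 15.2 CPM in w1118 (7.24 ± 0.83, adjusted p = 0.000206). LysB had 161, 146 and 221 CPM in Sep5 mutants, against 5.72, 10.6, 29.8 and 19.6 CPM in w1118 (3.65 ± 0.44, adjusted p = 0.000189). The groups were far apart for both, and w1118 replicate 4 was the highest control for LysD.

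The other members of the cluster, which runs from LysB to LysS on 3L (3L:1207371-1228238), behaved alike. LysE had 36.7, 33.3 and 39.8 CPM in Sep5 mutants, against 0.601, 1.09, 2.53 and 2.31 CPM in w1118 (4.61 ± 0.44, adjusted p = 3.31e-05). LysS had 124, 50.6 and 74.5 CPM in Sep5 mutants, against 3.20, 4.48, 16.0 and 21.0 CPM in w1118 (3.21 ± 0.54, adjusted p = 0.00286). LysC (6.86 ± 0.89) and LysP (log2 difference 2.77) were also called. LysX, outside that stretch, lay the other way, at 21.2, 33.4 and 33.3 CPM in Sep5 mutants, against 87.8, 92.5, 69.1 and 66.3 CPM in w1118, and missed the threshold (−1.44, adjusted p = 0.0548). Its adjusted p was 0.0488 without Sep5 replicate 2 and 0.00994 to 0.210 over all alternatives. LysB to LysE are near copies, so how their shared reads were divided bears on the value of each. The 6 calls held in every run that left out 1 of the 7 libraries, with adjusted p-values up to 0.0221. Summed over the family, the level was 630.3, 587 and 839.9 CPM in Sep5 mutants, against 100.5, 111, 121 and 129.7 CPM in w1118.

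**Figure D2:**
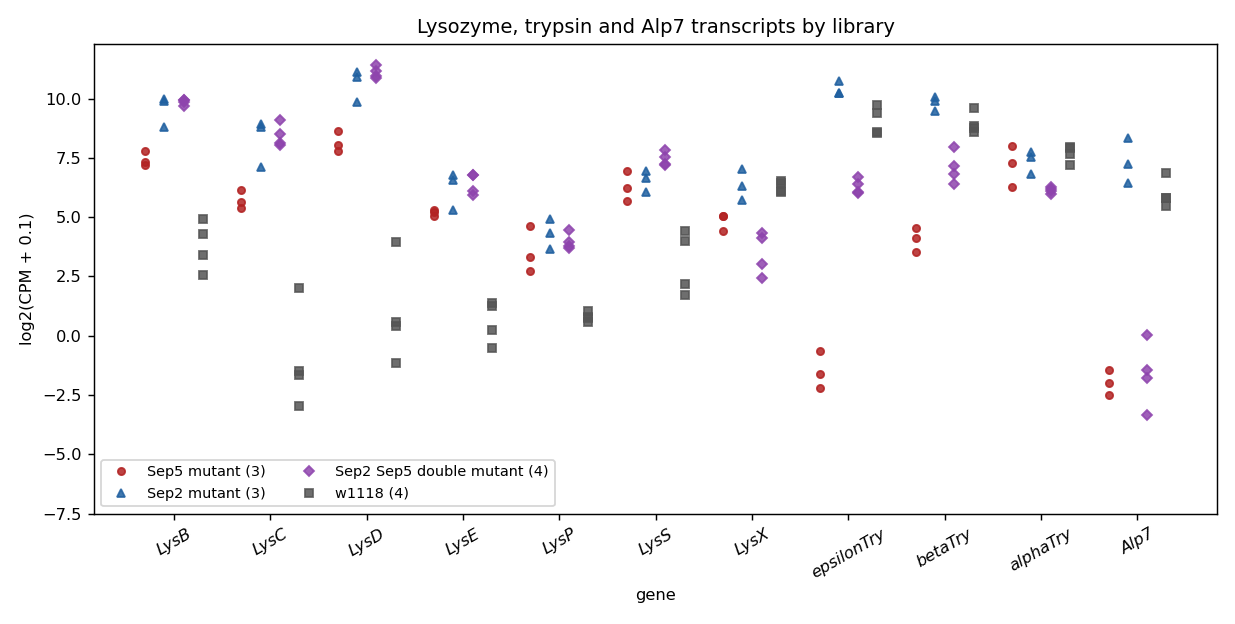
Points are single libraries of the Sep5 mutant, the Sep2 mutant, the double mutant and w1118, from left to right within a gene, on a log2 axis of CPM + 0.1. All 3 Sep5 mutant libraries lie above all 4 w1118 libraries for LysB, LysC, LysD, LysE, LysP and LysS and below them for epsilonTry, betaTry and Alp7, while the groups overlap for alphaTry.

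Other large rises concerned genes of varied kinds. Tpl94D, a transition protein of sperm chromatin, had 31.6, 59.3 and 37.9 CPM in Sep5 mutants, against 3.29, 5.18, 4.20 and 4.77 CPM in w1118 (3.24 ± 0.38, adjusted p = 0.000155). The hairpin RNA gene hpRNA:CR33940 had 15.5, 16.6 and 13.6 CPM in Sep5 mutants, against 1.85, 2.00, 1.77 and 1.10 CPM in w1118 (3.15 ± 0.28, adjusted p = 1.41e-05). In both, every mutant library lay well above the controls. CG15534 (log2 difference 4.42), CG3819 (4.27), CG16898 (3.15) and CG32284 (3.12) were called in every run that left out 1 library. Nplp2, a precursor of neuropeptide-like secreted peptides, had 164, 139.8 and 298 CPM in Sep5 mutants, against 10.6, 45.8, 55.1 and 4.77 CPM in w1118 (3.32 ± 0.78, adjusted p = 0.0257). CG32564 had 65.9, 44.9 and 158 CPM in Sep5 mutants, against 6.73, 19.9, 33.1 and 1.14 CPM in w1118 (3.18 ± 0.86, adjusted p = 0.0496). Their calls ended without w1118 replicate 1 (0.0741 for Nplp2 and 0.114 for CG32564), without Sep5 replicate 1 (0.0813 and 0.136) and without Sep5 replicate 3 (0.141 and 0.248), and that of CG32564 also without w1118 replicate 2 (0.0509).

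**Figure D3:**
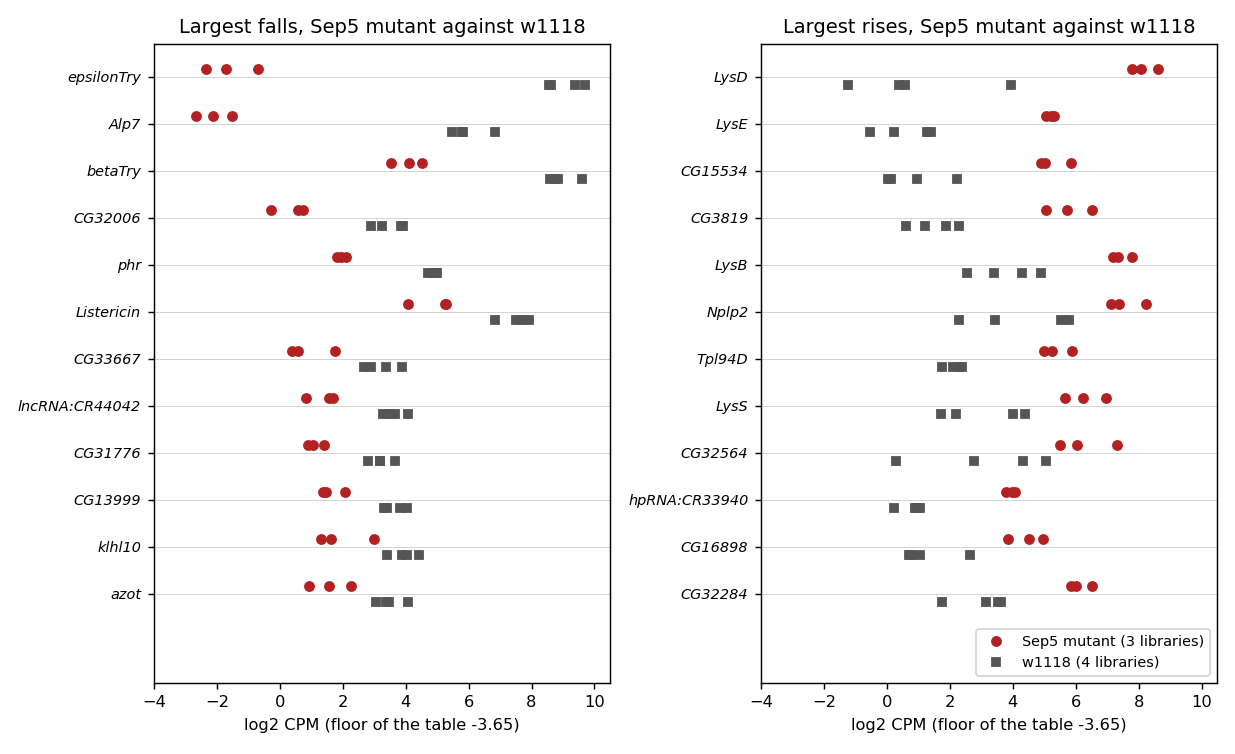
The 12 largest falls (left) and the 12 largest rises (right) that were called, averaged 2 log2 CPM or more and had no mutant library within the control range, with Sep5 mutant libraries as red circles above w1118 libraries as grey squares and log2 CPM on the x axis. The gap between the groups is widest for epsilonTry and Alp7 and narrowest for klhl10 and CG32564.

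Cytochrome P450s, enzymes that oxidize hormones and foreign compounds, were often higher in Sep5 mutants. Of 77 tested P450 genes 15 were called higher and 2 lower, against 3.89% and 1.24% of all tested genes. The median log2 difference was 0.74. Cyp6a17, known for its part in temperature preference, had 61.6, 30.1 and 54.5 CPM in Sep5 mutants, against 0.144, 0.0267, 0.0506 and 1.10 CPM in w1118 (7.57 ± 0.61, adjusted p = 6.14e-06). Cyp6t3, needed for ecdysone synthesis in the larval prothoracic gland, had 23.2, 17.7 and 22.996 CPM in Sep5 mutants, against 3.80, 2.99, 3.44 and 2.24 CPM in w1118 (2.76 ± 0.22, adjusted p = 6.14e-06). It was the single called gene among 18 tested ones for ecdysteroid synthesis and turnover (5.56%, near the 5.13% of all tested genes). Its neighbour Cyp6g2 (2R:12188338-12190377, beside Cyp6t3 at 2R:12190682-12192436) had 27.5, 21.8 and 30.6 CPM in Sep5 mutants, against 6.51, 4.67, 6.02 and 4.91 CPM in w1118 (2.25 ± 0.24, adjusted p = 8.59e-05). For these and for Cyp12d1-p, a P450 that responds to foreign compounds (2.63 ± 0.26, adjusted p = 4.94e-05), the groups did not overlap and the call held in every run that left out 1 library. The number of P450 calls was 28 higher and 2 lower without Sep5 replicate 2, 8 and 2 without replicate 1, and 10 and 2 without replicate 3.

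Among 34 tested glutathione S-transferases, which couple foreign compounds to glutathione, 3 were called higher (8.82%, against 3.89% of all tested genes) and none lower. Without Sep5 replicate 1 or 3 the count was 1 of 34. GstE1 had 31.0, 21.3 and 22.0 CPM in Sep5 mutants, against 3.65, 5.68, 3.74 and 6.16 CPM in w1118 (2.36 ± 0.46, adjusted p = 0.00763). GstE5 averaged 7.81 ± 1.27 CPM in Sep5 mutants and 2.83 ± 1.41 CPM in w1118. GstZ1, which acts in tyrosine breakdown, averaged 7.42 ± 2.19 CPM in Sep5 mutants and 3.31 ± 0.558 CPM in w1118 (SD, n = 3 and 4). These last calls (adjusted p = 0.0149 and 0.0196) ended without Sep5 replicate 1 (0.0552 to 0.110) or 3 (0.0564 to 0.0902), and that of GstZ1 also without w1118 replicate 1 (0.0590) or 2 (0.0522).

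Several genes of energy metabolism were higher in Sep5 mutants. Of 14 tested glycolysis genes 6 were called higher, with a median log2 difference of 1.15. Gpdh1, which links glycolysis to lipid synthesis and to the glycerol phosphate shuttle, had 118, 92.2 and 169 CPM in Sep5 mutants, against 28.3, 33.9, 60.1 and 31.7 CPM in w1118 (1.73 ± 0.38, adjusted p = 0.0164). Gapdh1 had 1669, 1359.5 and 2027 CPM in Sep5 mutants, against 707, 631, 1112 and 457 CPM in w1118 (1.27 ± 0.29, adjusted p = 0.0225). Pgi (1.13 ± 0.28) and Tpi (1.22 ± 0.31) were called as well. In each of these 4 genes the groups did not overlap and w1118 replicate 3 was the highest control. The list's summed level was 8961, 6766 and 10758 CPM in Sep5 mutants, against 3711, 3565, 6418 and 2916 CPM in w1118.

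Respiratory chain genes encoded in the nucleus had smaller differences. Complexes III to V had 11 of 42 tested members called higher (median log2 difference 0.74) and complex I had 2 of 39 (0.59), or 5.13%, which is near the 3.89% called higher among all tested genes. ATPsynD, a subunit of ATP synthase, had 255, 189.5 and 377 CPM in Sep5 mutants, against 78.5, 112, 161 and 73.6 CPM in w1118 (1.38 ± 0.28, adjusted p = 0.00934). COX5B of cytochrome c oxidase had 114, 106 and 126 CPM in Sep5 mutants, against 37.5, 61.6, 82.3 and 42.1 CPM in w1118 (1.11 ± 0.24, adjusted p = 0.0148). RFeSP of complex III (1.03 ± 0.24), ATPsynO (0.84 ± 0.21) and the complex I subunits ND-24 (0.72 ± 0.17) and ND-B14.5A (0.87 ± 0.23) were called too. Mitochondrial ribosomal proteins, 72 tested, had 2 called higher (2.78%, below the share of all genes), mRpL55 (1.02 ± 0.24) and mRpL4 (0.68 ± 0.17), and the 14 tested genes of the mitochondrial genome had none.

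The energy genes' calls depended on which library was in the comparison. Without Sep5 replicate 3 none of the 4 glycolysis and 6 respiratory genes named above was called (adjusted p = 0.0704 to 0.191), and without Sep5 replicate 1 ATPsynD alone was (0.0380, the others 0.0555 to 0.110). Without w1118 replicate 1 the 4 glycolysis genes (0.0542 to 0.0787) and ATPsynO, ND-24 and ND-B14.5A (0.0728 to 0.109) missed the threshold. Without w1118 replicate 4 Gapdh1, Pgi and Tpi (0.0628 to 0.0920) and the same 3 respiratory genes (0.0716 to 0.0980) did, and without w1118 replicate 2 Gapdh1, Pgi and Tpi (0.0573 to 0.0725) and ND-B14.5A (0.0527) did. ND-B14.5A also missed it without Sep5 replicate 2 (0.0539). Both mitochondrial ribosomal calls ended without w1118 replicate 1 or 2 or without Sep5 replicate 1 or 3 (0.0508 to 0.193), and that of mRpL4 without w1118 replicate 4 (0.0649). Over the lists, 10 of 14 glycolysis genes were called without Sep5 replicate 2, but none without replicate 1 or 3. For complexes III to V the counts were 14, 1 and 0 of 42 without replicates 2, 1 and 3.

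A few contractile genes of muscle were higher too. Of 11 tested thin filament genes 2 were called higher (median log2 difference 0.93), and of 15 thick filament and Z-disc genes 2 (1.01). The share called higher among all tested genes was 3.89%. Mlc2, a myosin light chain, had 6509, 4997 and 7963 CPM in Sep5 mutants, against 903, 2336, 4162 and 742 CPM in w1118 (2.00 ± 0.48, adjusted p = 0.0261). Mlp60A, a LIM protein of the Z-disc, had 684, 535 and 826 CPM in Sep5 mutants, against 117, 237, 475 and 89.9 CPM in w1118 (1.85 ± 0.42, adjusted p = 0.0196). Tropomyosin Tm2 (1.41 ± 0.36) and the troponin C gene TpnC25D (2.07 ± 0.52) were the other calls. In whole larvae, more muscle relative to the rest and more RNA per muscle cell cannot be told apart. The summed thin filament level was 17921, 12388 and 21728.5 CPM in Sep5 mutants, against 5366, 7761, 12045 and 5469 CPM in w1118, so the lowest mutant and the highest control almost met. The thick filament and Z-disc sums overlapped, at 30698.6, 23444.5 and 48889.7 CPM in Sep5 mutants, against 15301, 15766, 24926 and 11380.1 CPM in w1118. None of the 4 calls held without w1118 replicate 1 (adjusted p = 0.0665 to 0.106), Sep5 replicate 1 (0.0733 to 0.140) or Sep5 replicate 3 (0.111 to 0.193). Mlp60A alone held without w1118 replicate 4 (0.0481, the others 0.0682 to 0.101), and Tm2 missed the threshold without w1118 replicate 2 (0.0664). None of the 4 was called with sample weights (0.0522 to 0.0983), with only the 7 libraries fitted (0.0728 to 0.146) or without the double mutant (0.0513 to 0.0766).

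The study's title concerns the neuromuscular junction and microtubules, and the genes for these gave almost no calls. None of 20 postsynaptic, 25 presynaptic, 10 glial and 25 microtubule-associated protein genes was called, against 5.13% of all tested genes. Lists of this size would hold few calls at that share. Without Sep5 replicate 2, 2 of the 25 microtubule-associated protein genes were called higher and 2 lower. In that run 1 postsynaptic gene and 2 of 8 tubulins were called higher, and no presynaptic or glial gene was called. The share of all tested genes called in it was 10.9%. GluRIIE, an essential subunit of the muscle glutamate receptors, came nearest among the postsynaptic genes, at 33.3, 14.6 and 21.9 CPM in Sep5 mutants, against 8.70, 12.0, 16.2 and 8.83 CPM in w1118, with overlap (0.98 ± 0.31, adjusted p = 0.0877; 0.0427 without w1118 replicate 3 and 0.0254 without Sep5 replicate 2). The stathmin gene stai, whose product binds tubulin and destabilizes microtubules, had 116, 131 and 71.6 CPM in Sep5 mutants, against 159, 196, 145 and 294 CPM in w1118, without overlap (−0.89 ± 0.24, adjusted p = 0.0502; 0.0251 without w1118 replicate 3 and 0.0249 without Sep5 replicate 2). With all libraries, stai was called with quantile normalization (adjusted p = 0.0379), sample weights (0.0327) and limma-voom on the recovered reads (0.0466). Among 8 tubulins alphaTub85E was called, at 30.6, 20.7 and 33.8 CPM in Sep5 mutants, against 12.8, 10.9, 17.3 and 11.7 CPM in w1118 (1.10 ± 0.24, adjusted p = 0.0149). It missed the threshold without Sep5 replicate 1 (0.0722) or 3 (0.102). Among 12 cytokinesis genes tum, which acts at the central spindle, was called, at 36.2, 34.1 and 36.5 CPM in Sep5 mutants, against 22.4, 16.1, 20.7 and 24.7 CPM in w1118 (0.78 ± 0.20, adjusted p = 0.0416). It was not called without w1118 replicate 1, 2 or 3 (0.0734, 0.102 and 0.0582) or Sep5 replicate 1 or 3 (0.131 and 0.171).

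A few digestive enzymes outside the trypsin row were called higher in Sep5 mutants. They were 2 of 16 tested Jonah proteases, 1 of 12 maltases and amylases and 2 of 10 alkaline phosphatases, against 3.89% of all tested genes. All the Jonah proteases, maltases and amylases had a log2 difference above 0. That was not particular to them, since 88 of 91 cytosolic and 69 of 72 mitochondrial ribosomal protein genes did too. Jon99Cii had 1668, 1699 and 3070.2 CPM in Sep5 mutants, against 685, 643, 1192 and 514 CPM in w1118 (1.51 ± 0.30, adjusted p = 0.00854). The amylase gene Amy-p had 262, 207 and 299 CPM in Sep5 mutants, against 97.7, 66.1, 128 and 76.3 CPM in w1118 (1.50 ± 0.29, adjusted p = 0.00816). Mutant and control libraries were separate for both. Jon99Ciii, next to Jon99Cii and a close copy of it, was also called (1.54 ± 0.37), as were the alkaline phosphatases Alp13 (1.86 ± 0.48) and Alp9 (1.32 ± 0.35), against the fall of Alp7. Without Sep5 replicate 3 none of these and etaTry was called (adjusted p = 0.0575 to 0.202), and without Sep5 replicate 1 Alp13 and Alp9 were not (0.168 to 0.174). Jon99Ciii and Alp9 missed the threshold without w1118 replicate 1, 2 or 4 and Alp13 without replicate 1 or 4 (0.0560 to 0.114).

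Cuticle proteins were called higher in 13 and lower in 1 of 72 tested genes, with a median log2 difference of 0.76. The shares over all tested genes were 3.89% and 1.24%. Lcp9, a larval cuticle protein, had 219, 192 and 262 CPM in Sep5 mutants, against 21.2, 29.1, 123 and 21.8 CPM in w1118 (2.63 ± 0.48, adjusted p = 0.00519). Cpr47Eb had 123, 69.2 and 197 CPM in Sep5 mutants, against 27.7, 43.1, 46.3 and 33.6 CPM in w1118 (1.68 ± 0.34, adjusted p = 0.00983). The one fall was in Cpr49Ad, with 2 reads over the 3 mutant libraries against 208 reads over the 4 control libraries. Cpr47Eb and Edg78E (1.90 ± 0.37), a rise at a low level, missed the threshold without Sep5 replicate 3 (0.0609 to 0.0707). The count for the list was 3 higher and 1 lower without Sep5 replicate 1, and 1 and 1 without replicate 3. Without replicate 2 it was 18 and 2. Cuticle genes are among those whose levels set replicate 2 apart, so that last count is no test.

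The lists for secreted products of salivary glands and fat body were small, with only 3 new-glue genes tested. In each a single call exceeds the 5.13% called among all tested genes. The new-glue genes ng1 and ng3, made in salivary glands before the glue itself, were called higher, with ng3 at 312, 63.9 and 192 CPM in Sep5 mutants, against 16.4, 29.1, 71.1 and 32.6 CPM in w1118 (2.27 ± 0.58, adjusted p = 0.0379). Their groups overlapped, with Sep5 replicate 2 below w1118 replicate 3, and no run kept either call except those without w1118 replicate 3 (up to 0.0140) and Sep5 replicate 2 (up to 0.00797); in the other 5 the adjusted p was 0.0509 to 0.177. None of 7 glue genes was called. Among 8 storage and fat body proteins Lsp1beta, an amino acid store for metamorphosis, was called, at 14966, 20401 and 32719.6 CPM in Sep5 mutants, against 6979, 8610.4, 14838 and 8196 CPM in w1118 (1.22 ± 0.33, adjusted p = 0.0498). It missed the threshold without any 1 of Sep5 replicates 1, 2 and 3 (0.0533, 0.0574 and 0.270) and of w1118 replicates 1, 2 and 4 (0.130, 0.104 and 0.115), and with quantile normalization its log2 difference was only 0.41 (adjusted p = 0.449). AcCoAS, which makes acetyl-CoA from acetate, was the one call among 16 lipid storage genes, at 158, 122 and 185 CPM in Sep5 mutants, against 77.5, 63.7, 53.0 and 58.3 CPM in w1118 (1.29 ± 0.25, adjusted p = 0.00785; 0.0595 without Sep5 replicate 3).

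Antimicrobial peptide genes differed mostly between libraries of the mutant. Of 27 tested, BomBc1 and BomT3 were called higher and Listericin lower, and the median log2 difference was −0.67. BomBc1, a secreted peptide of the Toll pathway, had 55.5, 2.95 and 1.57 CPM in Sep5 mutants, against 0.0240, 0.400, 0 and 0 CPM in w1118 (5.61 ± 1.14, adjusted p = 0.011), with Sep5 replicate 1 far above the others. With 1 CPM added to every value the log2 difference was 2.92 and the call ended (adjusted p = 0.0648). The same library was at least 4-fold above both other Sep5 libraries for BomBc2, BomS1, BomS2, BomS3, BomS5, BomT2 and Drs. Drs, an antifungal peptide, had 196, 34.2 and 4.63 CPM in Sep5 mutants, against 63.4, 82.4, 24.2 and 22.8 CPM in w1118. BomT3 averaged 1.83 ± 0.843 CPM in Sep5 mutants and 0.446 ± 0.120 CPM in w1118 (adjusted p = 0.0184; 0.0520 without w1118 replicate 1, 0.0990 without Sep5 replicate 1 and 0.121 without Sep5 replicate 3). None of 14 hemocyte markers was called.

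**Figure D4:**
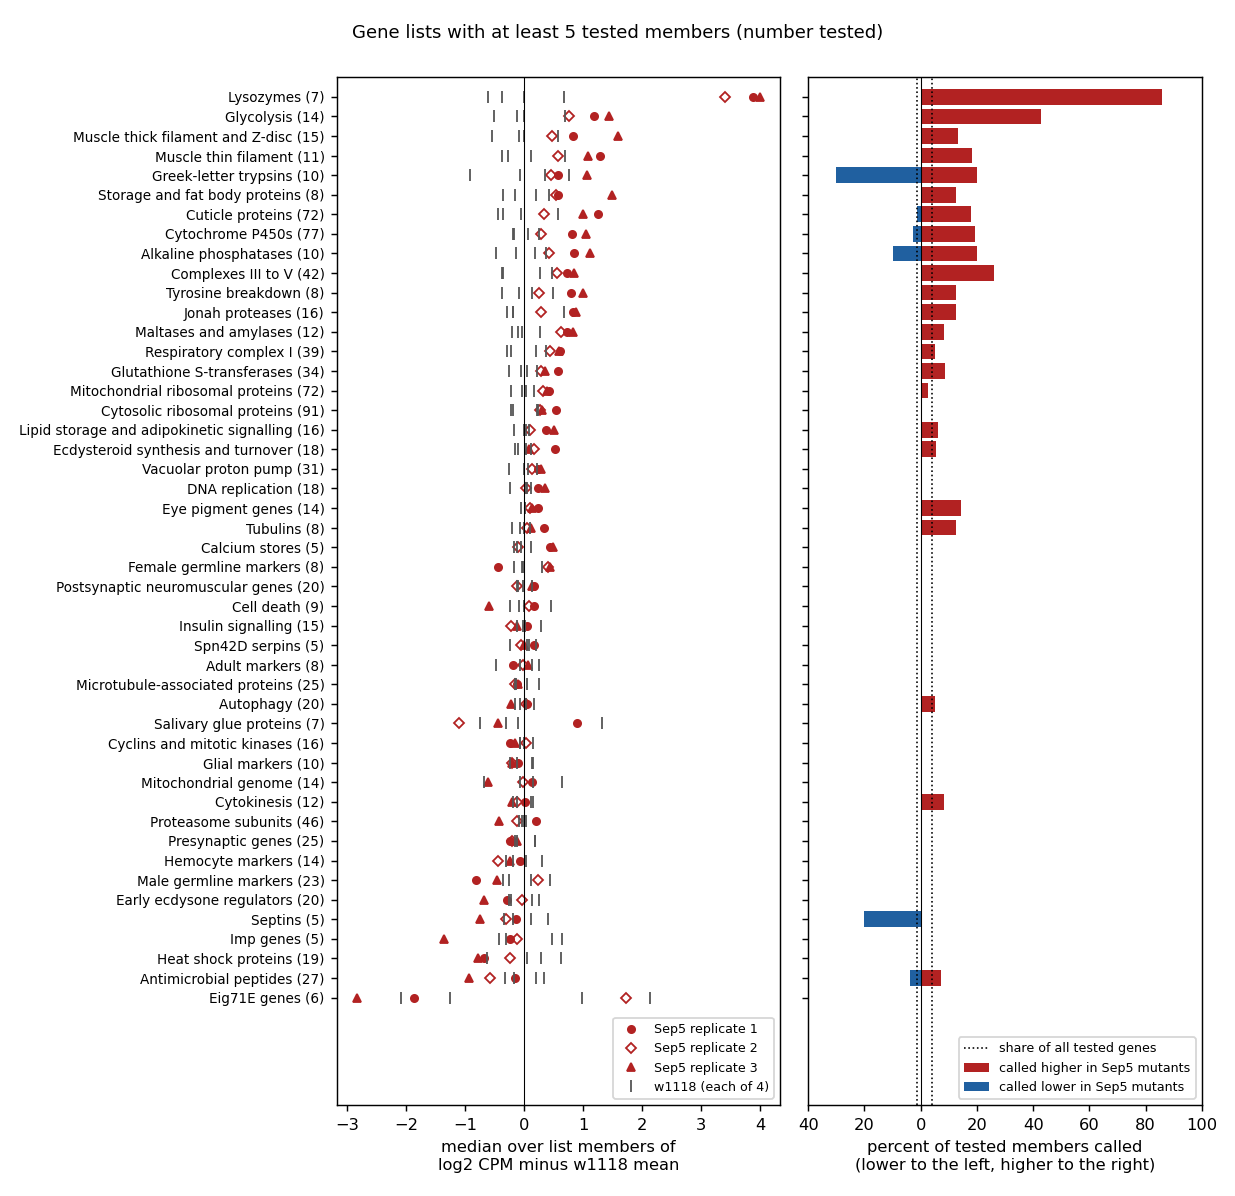
For each gene list with at least 5 tested members, the left panel gives the median over members of log2 CPM minus the w1118 mean in each library (red symbols for Sep5 replicates 1 to 3, grey ticks for w1118), and the right panel the percentage of members called, with dotted lines at the 3.89% called higher and 1.24% called lower among all tested genes. Sep5 replicate 2 (open diamonds) lies nearer to the controls than replicates 1 and 3 for muscle, cuticle and P450 genes, while for lysozymes all 3 stand far above them, at 3.40 to 4.00.

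Of 48 gene lists, 23 had no called member, with 440 tested genes in all. Besides those above they included 91 cytosolic ribosomal proteins (median log2 difference 0.37), 46 proteasome subunits (−0.17), 16 cyclins and mitotic kinases (−0.13), 18 DNA replication genes (0.20), 15 insulin signalling genes (0.01), 9 cell death genes (0.03) and 31 subunits of the vacuolar proton pump (0.22). Among 20 autophagy genes Atg16 alone was called, at 63.9 ± 8.45 CPM in Sep5 mutants and 42.9 ± 2.96 CPM in w1118 (adjusted p = 0.0435), and it missed the threshold without any 1 library other than Sep5 replicate 2 (0.0582 to 0.186). Heat shock proteins had a median of −0.66 with none of 19 called. A list without calls is not shown to be unchanged at this number of libraries.

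None of 20 tested early regulators of the ecdysone response was called over all 3 Sep5 libraries, and those libraries differed widely. Hr4, an ecdysone-induced nuclear receptor, had 14.2, 263 and 11.6 CPM in Sep5 mutants, against 191, 118, 155 and 180.1 CPM in w1118. Eip78C, another nuclear receptor of the response, had 22.1, 318 and 4.33 CPM in Sep5 mutants, against 98.5, 153, 159 and 227 CPM in w1118. For both genes replicates 1 and 3 lay below every control, and replicate 2 above every control. The transcription factor Eip93F had 8.92, 58.0 and 8.66 CPM in Sep5 mutants, against 91.3, 37.0, 22.0 and 47.7 CPM in w1118, with replicate 2 inside the control range. Over the 3 libraries the adjusted p-values were 0.168 for Hr4, 0.245 for Eip78C and 0.189 for Eip93F. No test without replicate 2 is given for this list, because these same levels set that library apart.

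The same order, with replicate 2 the highest mutant library, was seen for the transporter gene E23 (82.4, 128 and 16.6 CPM in Sep5 mutants, against 171, 144, 109.9 and 224 CPM in w1118), the nuclear receptor gene Hr3 (0.545, 2.41 and 0.0747 CPM in Sep5 mutants, against 1.99, 1.76, 1.26 and 2.42 CPM in w1118) and Eip63E (66.9, 89.1 and 56.4 CPM in Sep5 mutants, against 103, 94.9, 89.6 and 133 CPM in w1118). Of the 20, 12 lay below the lowest control in replicate 3, 11 in replicate 1 and 4 in replicate 2, against 30.3%, 27.9% and 16.4% of all tested genes. No early regulator was called without replicate 1 or without replicate 3. Those runs kept replicate 2 beside a single mutant library that lay far from it in genes such as Hr4 and Eip78C. A call was therefore hardly possible for such genes, and nothing is concluded from its absence.

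The receptor genes and several other regulators were not called either. EcR, the ecdysone receptor, had 369, 199.8 and 255 CPM in Sep5 mutants, against 519.9, 239.6, 274 and 426 CPM in w1118, and its partner usp averaged 57.2 ± 4.49 CPM in Sep5 mutants and 58.3 ± 12.1 CPM in w1118. The zinc finger regulator br had 1583, 1692 and 853 CPM in Sep5 mutants, against 3172, 1753, 1734 and 2866 CPM in w1118, just without overlap (adjusted p = 0.117). Eip75B had 238, 374 and 223 CPM in Sep5 mutants, against 646, 312, 392 and 551 CPM in w1118 (adjusted p = 0.139), and Eip74EF averaged 324 ± 79.0 CPM in Sep5 mutants and 402 ± 70.5 CPM in w1118. Replicate 2 was the highest mutant library for br, Eip75B and Eip74EF, and the lowest for EcR and usp. The competence factor ftz-f1 averaged 17.5 ± 4.21 CPM in Sep5 mutants and 14.2 ± 3.64 CPM in w1118. Among the 5 ecdysone-inducible Imp genes, none of them called, 2 lay below every control in replicate 1, none in replicate 2 and 4 in replicate 3. ImpE1 had 32.5, 65.0 and 13.1 CPM in Sep5 mutants, against 95.01, 39.0, 34.6 and 90.7 CPM in w1118. ImpE2, a secreted protein of imaginal discs, had 108, 116 and 9.63 CPM in Sep5 mutants, against 163, 62.8, 67.1 and 278 CPM in w1118, and replicate 3 alone was low for it.

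**Figure D5:**
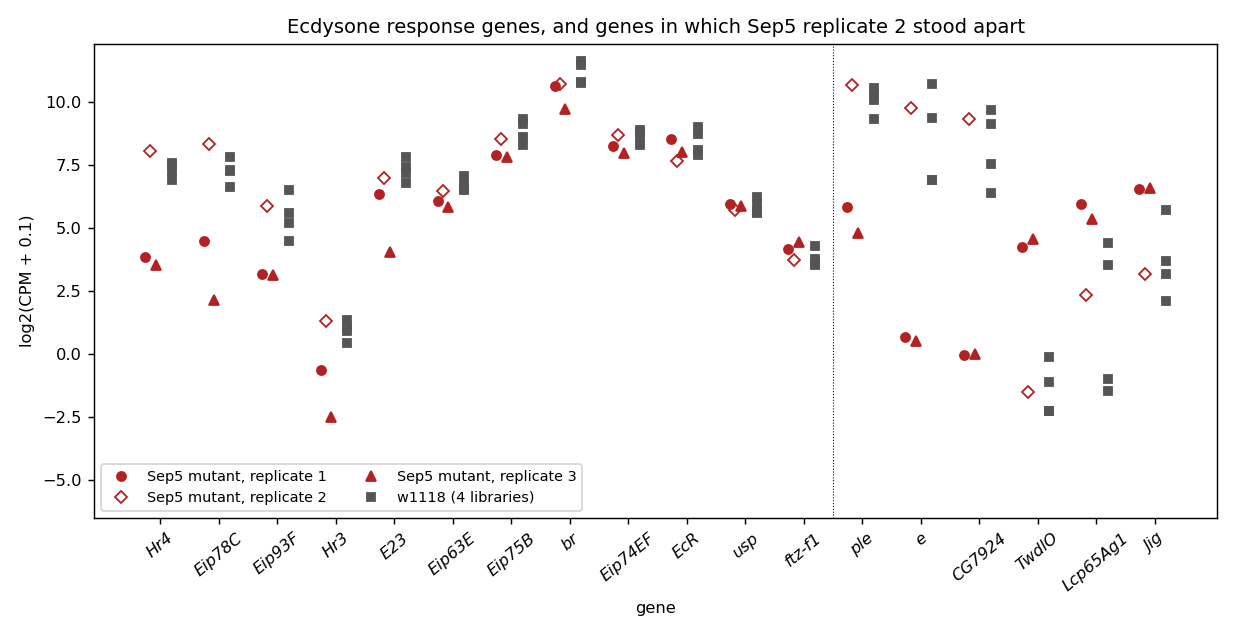
Levels in each library on a log2 axis of CPM + 0.1, with Sep5 replicates 1 to 3 (red) to the left of w1118 (grey squares) for each gene. Left of the dotted line are ecdysone response genes, right of it 6 of the genes in which Sep5 replicate 2 (open diamonds) was at least 4-fold away from both other mutant libraries; in Hr4, Eip78C, ple, e and CG7924 replicates 1 and 3 are low, while in TwdlO, Lcp65Ag1 and Jig they are high.

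The genes that set Sep5 replicate 2 apart include several of cuticle tanning and cuticle structure; they are named here because of these values, so no test applies. The ebony gene e, which makes a dopamine derivative for cuticle tanning, had 1.50, 871 and 1.34 CPM in Sep5 mutants, against 1689, 665, 119 and 118 CPM in w1118. ple, the tyrosine hydroxylase that makes the dopamine precursor, had 57.5, 1619 and 27.8 CPM in Sep5 mutants, against 1486, 1095, 639 and 1326 CPM in w1118. Replicate 2 lay within or just above the control range for these genes, and replicates 1 and 3 far below it. In the opposite direction, the Tweedle cuticle gene TwdlO had 18.7, 0.252 and 23.6 CPM in Sep5 mutants, against 0.360, 0.107, 0.809 and 0.110 CPM in w1118. The glue gene Sgs1 had 734, 103 and 448 CPM in Sep5 mutants, against 164, 117, 225 and 553 CPM in w1118. The Eig71E genes, expressed late in salivary glands, had a median over 6 tested members of −1.87, 1.74 and −2.83 log2 units from the control mean in replicates 1, 2 and 3, while the 4 control libraries ranged from −2.10 to 2.14. The summed level of all 11 Eig71E genes had another order, with replicate 2 the lowest mutant library. It was 1722, 406 and 592 CPM in Sep5 mutants, against 599, 443, 376 and 2072.5 CPM in w1118. Whether developmental age differed between the libraries was not tested, and the labels do not give it.

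The Sep5 mutant was also set directly against the other mutants. Against Sep2 mutants 306 genes were called (2.43%), 164 higher (1.3%) and 142 lower (1.13%) in Sep5 mutants. epsilonTry was lower in Sep5 mutants than in Sep2 mutants, which had 1190.5, 1201 and 1726 CPM (log2 difference −11.98 ± 0.39, adjusted p = 2.05e-10). Alp7, at 149, 85.8 and 325 CPM in Sep2 mutants, was lower in Sep5 mutants as well (−9.43 ± 0.72, adjusted p = 3.80e-06). Cyp6t3, at 2.30, 2.36 and 2.25 CPM in Sep2 mutants, was higher in Sep5 mutants (3.16 ± 0.24, adjusted p = 3.80e-06), as were Cyp6g2 (2.40 ± 0.26, adjusted p = 0.000113) and w (2.91 ± 0.49, adjusted p = 0.00491). The serpin gene Spn42De, at 7.63, 4.10 and 8.14 CPM in Sep5 mutants, against 0.785, 0.322 and 0.374 CPM in Sep2 mutants, was higher too (3.57 ± 0.35, adjusted p = 4.78e-05), although it was not called against w1118 (adjusted p = 0.085, or 0.0251 without Sep5 replicate 2).

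Other large differences from w1118 were not called between the single mutants. LysD had 1935, 915 and 2251 CPM in Sep2 mutants (Sep5 minus Sep2 −2.48 ± 0.89, adjusted p = 0.198), and Cyp6a17 had 25.2, 33.8 and 44.2 CPM there (0.47 ± 0.65, adjusted p = 0.825). phr, at 4.59, 4.33 and 4.87 CPM in Sep2 mutants (−0.26 ± 0.20, adjusted p = 0.612), and CG32006, at 0.665, 1.36 and 0.562 CPM there (0.53 ± 0.39, adjusted p = 0.579), were low in both. Against w1118 the 2 single mutants share the control libraries, so a level that both mutants have in common also rests on those 4 libraries. Of the lysozymes LysB alone was called between the single mutants, lower in Sep5 mutants (−2.12 ± 0.47, adjusted p = 0.0260). The count of 306 was 200 without Sep5 replicate 1 and 157 without replicate 3.

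Against the double mutant 1121 genes were called (8.91%), 472 higher (3.75%) and 649 lower (5.16%) in Sep5 mutants. epsilonTry and betaTry were lower in Sep5 mutants than in double mutants, which had 83.3, 63.9, 103 and 66.4 CPM of epsilonTry (−7.87 ± 0.36, adjusted p = 2.96e-08) and 141, 84.0, 248 and 114 CPM of betaTry (−3.02 ± 0.35, adjusted p = 0.000153). Alp7 was near 0 in both (adjusted p = 0.776). Septin2 was higher in Sep5 mutants than in double mutants, which had 0.726, 0.270, 0.669 and 9.11 CPM (5.68 ± 0.76, adjusted p = 0.0006). The ecdysone response genes br (1.74 ± 0.28, adjusted p = 0.00219), ImpE1 (2.58 ± 0.48, adjusted p = 0.00514), ImpE2 (4.03 ± 0.76, adjusted p = 0.00597) and E23 (2.08 ± 0.51, adjusted p = 0.0212) were higher in Sep5 mutants. In each of them Sep5 replicate 2 was the highest mutant library and replicate 3 the lowest, at the levels given above. They were picked as called, and the share of ecdysone genes called in this comparison is not given. Without Sep5 replicate 2 the count of 1121 genes fell to 406. Septin5 itself was lower in Sep5 mutants than in double mutants, which had 0.207, 0.116, 1.34 and 0.854 CPM (−2.31 ± 0.56, adjusted p = 0.0207).

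An interaction was tested, the difference between double and Sep2 mutants minus that between Sep5 mutants and w1118. It was called for 562 genes (4.47%), above 0 for 278 (2.21%) and below 0 for 284 (2.26%). For epsilonTry it was 6.53 log2 units, since the gene was at 63.9 to 103 CPM in double mutants and at 0.117 to 0.545 CPM in Sep5 mutants. For LysD it was −6.78, with 1877 to 2712 CPM in double mutants and 915 to 2251 CPM in Sep2 mutants. Both directions occurred among the genes that separated Sep5 mutants from w1118. Septin2 itself had 21.7, 29.4 and 26.2 CPM in Sep2 mutants, against 0.726, 0.270, 0.669 and 9.11 CPM in double mutants. Double and Sep2 mutants thus differed in their Septin2 level as well, so the interaction does not isolate the Sep5 mutation.

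Called genes were spread over the genome but were most frequent on 2R, the arm of Septin5. There 5.18% of tested genes were called higher and 2.21% lower, against 3.89% and 1.24% of all tested genes. The share called between Sep5 mutants and w1118 was 7.39% of tested genes on 2R, 5.76% on 2L, 5.01% on 3L, 4.39% on 3R, 3.05% on X and 1.15% of 87 on chromosome 4. Within 2 Mb of Septin5, leaving it out, it was 4.49% of 512 genes, and within 1 Mb 6.19% of 291. Among genes named above as called, azot, phr, Gapdh1 and Pgi lie within 1 Mb. Cyp6a15Psi, a P450 pseudogene 609 kb away, rose (log2 difference 3.05) while Cyp6a13 beside it fell (−1.65). They were chosen for their position beside each other after their values were seen.

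Reads were missing altogether from one group for 4 genes with at least 10 reads in every library of the other. lncRNA:CR44105, lncRNA:CR44505 and CG31928 had no read in the 3 Sep5 mutant libraries, against 17 to 35, 13 to 37 and 20 to 53 reads per w1118 library. CG32318, on 3L beyond the lysozyme cluster (3L:1246073-1246923), had 16, 81 and 26 reads in Sep5 mutant libraries, against none in the 4 w1118 libraries. The Sep2 libraries together had 36 reads of lncRNA:CR44105, 0 of lncRNA:CR44505, 14 of CG31928 and 43 of CG32318. The double mutant libraries, which carry the same Sep5 allele, had 21, 1, 2 and 0 reads of these genes, so neither lncRNA:CR44105 nor CG32318 was there as in the Sep5 mutant.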

How the data were processed

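The table the authors deposited holds log2 CPM values per gene and library, made from counts that the authors scaled with edgeR's TMM method, per the series' design text. The submitters' processing notes list the tools STAR 2.7.11b, edgeR 3.40, cutadapt 3.5 and FastQC 0.11.9, and BDGP6 and dm6 as builds. Which tool counted reads, and whether by strand, was not given in the sources used here. Reads of overlapping, antisense or nearly identical genes may therefore be mixed. RNA was extracted with TRIzol and an RNeasy cleanup, and libraries were made with a Watchmaker mRNA kit, per the labels' protocols.

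After subtracting the lowest level (−3.65 log2 CPM, or 0.0797 CPM), 100% of 250166 values came to whole reads within 0.01 reads, with 2.00 reads added on average by the authors. Folds of low genes are therefore pulled towards 0. CPM values printed are recovered reads, scaled to the library, without the added count. Intervals are exact 95% intervals on reads and cover counting error only. Positions are from Ensembl release 115 of BDGP6, found for 17790 of 17869 genes.

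limma 3.58.1 (R 4.3.3) was fitted to the log2 values of all 14 libraries with genotype as the single term, intensity trend and robust shrinkage. No sample was dropped or imputed. Counts were simulated for the comparison of Sep5 mutants with w1118, over 12361 genes. In them limma recovered 75% of 100 genes changed 2-fold and 100% of 100 changed 4-fold, and called 10 unchanged genes. The simulation gave every gene the same dispersion of 0.05, changed only well-expressed genes and held no aberrant library. These rates therefore do not describe detection or false calls in the real libraries. The edgeR and DESeq2 count tests were not used, because the deposited unit is a log value. Alternatives were other filters, scalings and variance models, limma-voom on the recovered reads, fewer libraries in the fit and each library left out in turn.

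Genes were named by rule: the septins and w, the 12 largest called changes in each direction averaging 2 log2 CPM or more over the 7 libraries and without overlap, up to 4 called members of each of 48 gene lists, or the member with the smallest p where none was called, and the early ecdysone and Imp genes. kappaTry, alphaTry, LysX, LysP, Drs, the Bom genes other than BomBc1 and BomT3, Sgs1, the genes of the paragraph on Sep5 replicate 2 and those near Septin5 or without reads stand outside it, named after their values were seen or as further members of a cluster. The comparison and the lists were chosen with earlier results of these data known. Of the listed genes 1141 were matched, 1001 were tested and 6 entries were not matched. Libraries of 1 group differed by far more than sampling noise, so each was counted as its own sample, although separate preparations of 1 RNA pool would differ in that way too.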

Additional observations from a re-analysis of the deposited data

Results flagged for a closer look

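Among the 121 named genes, a single w1118 library lay apart from the other 3 in 5 genes: BomBc1 in replicate 2 (0.400 CPM), Rh6 and Cth in replicate 3 (4.25 and 83.6 CPM), Hr39 in replicate 4 (124 CPM) and ImpL2 in replicate 1 (66.0 CPM). The gap to the nearest library, as a share of the group's range, passed Dixon's 95% criterion for 4 samples, which chance gives in about 1 in 20 groups, so 5 of 121 is no more than chance would give. Groups of 3, such as the Sep5 mutant, were not examined in this way.

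A difference between double minus Sep2 mutant and Sep5 mutant minus w1118 was called for 562 genes (4.47%), as the interaction in limma. It does not isolate the Sep5 mutation, because Septin2 was also lower in double than in Sep2 mutants. Among named genes the difference was positive for epsilonTry (6.53), Listericin (4.53), Spn42De (4.11), CG32006 (3.85), lncRNA:CR44042 (2.77), BomT3 (2.66), phr (2.66), Cpr47Eb (2.57), NimC1 (2.51) and betaTry (2.14), in log2 units. It was negative for LysD (−6.78), LysC (−6.70), Cyp6a17 (−6.09), ImpE2 (−4.61), Septin2 (−4.58), CG3819 (−4.58), LysE (−4.43), Tpl94D (−4.07), LysB (−3.35), hpRNA:CR33940 (−2.62), Edg78E (−2.57), Cyp12d1-p (−2.49) and GstZ1 (−1.36). Some of these genes were alike in every mutant, so that w1118 alone stood apart. phr averaged 3.82, 4.60 and 3.86 CPM in Sep5, Sep2 and double mutants, against 29.6 CPM in w1118. For CG32006 the means were 1.26, 0.862 and 1.41 CPM, against 11.5 CPM, and for Tpl94D 42.9, 61.1 and 33.7 CPM, against 4.36 CPM. epsilonTry was not of this kind, at 0.295, 1373 and 79.3 CPM, against 568 CPM. What sets these differences was not tested.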

How the results depend on the processing

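The count of 646 was 350 when only the 7 libraries of both groups were fitted, and 238 to 1373 with 1 library left out. It was 756 without a filter, 473 with a stricter one, 641 with limma-voom on the recovered reads and 847 with sample weights, where 58.2% of called genes were higher in place of 75.9%. For Sep5 against Sep2 mutants (306) the count was 200 with the stricter filter, 187 with only their libraries, 1844 with sample weights and 157 to 330 with 1 library left out. Against the double mutant (1121) it was 631 with only their libraries and 406 to 1195 with 1 left out. The interaction (562) gave 2204 with sample weights and 278 to 600 with 1 left out, the lowest being without w1118 replicate 2 (278), Sep5 replicate 1 (282), Sep5 replicate 2 (291) and w1118 replicate 3 (313). With 50 reads required in place of 10, the count of genes without reads in one group was 0 in place of 4. Within 5 Mb of Septin5 6.73% of genes were called, against 4.49% within 2 Mb. No named gene reversed its direction. Of 71 called ones 28 kept their call in all 18 alternatives, and of 50 not called 13 were called without Sep5 replicate 2. The 13 include early ecdysone regulators, whose own levels set that library apart, so for these the change of call is no test. Samples with the same replicate number deviated together in 2 of 3 pairs of Sep5 mutant and w1118 libraries (correlations −0.08, 0.32 and 0.39). Of the Sep5 libraries 2 correlated best with the library of their own number. Whether equal numbers mark samples handled together was not tested. With the replicate block 592 genes were called, 411 higher and 181 lower. With 3 libraries against 4, low genes and small differences stay below detection, and the cause of these shifts was not tested.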
